A study of Homo sapiens with 6 samples.

Results

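The 10 genes described here take iron into the cell, store it, export it, sense it or release it from heme. They were chosen by gene name, by a rule that used no expression values, although earlier results of these data were known. All 10 were found among the 60664 genes of the expression table. These were TFRC, STEAP3 and SLC11A2 (uptake), FTH1, FTL and NCOA4 (storage), SLC40A1 (export), ACO1 and IREB2 (the iron regulatory proteins) and HMOX1 (heme oxygenase). Expression was measured by RNA sequencing in 67R cells, a line of NCI-H1975 lung adenocarcinoma cells resistant to the EGFR inhibitor ASK120067. The control libraries, siNC replicates 1, 2 and 3, came from cells transfected with a negative control siRNA, and siBCAT1 replicates 1, 2 and 3 came from cells in which an siRNA lowered BCAT1, the cytosolic transaminase of branched-chain amino acids. All 6 libraries thus came from 1 resistant line, the parental line was not sequenced in this series, and the labels do not say whether replicates were separate cultures, so p-values measure the spread between these libraries, which may be technical.

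Iron enters most cells bound to transferrin. The transferrin receptor carries it into endosomes, a STEAP reductase reduces it there, and the transporter DMT1 moves it to the cytosol, where it is used, stored in ferritin or exported by ferroportin. When iron is scarce, the iron regulatory proteins IRP1 and IRP2 bind stem-loops called iron-responsive elements, which protects the transferrin receptor transcript from decay and holds back translation of the ferritins. Iron is also the cofactor of the dioxygenases that use alpha-ketoglutarate, a substrate or product of BCAT1.

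Stem-loops of the members with the form of an iron-responsive element are shown because the iron regulatory proteins bind such elements. A stem-loop was searched for on the sense strand of 1 principal transcript per gene (GENCODE 29, GRCh38), as a C, 5 bases, the loop CAGTGN with a last base other than G, and 5 bases that pair with the first 5, G with T allowed. TFRC held 4 such stem-loops, all in exon 19 in its 3′ UTR, and was the only 1 of 11719 transcripts of tested genes with 4 or more there. FTH1, FTL and SLC40A1 each held 1 in exon 1, in the 5′ UTR. Of the 11719 transcripts, 0.512% held such a stem-loop in the 3′ UTR and 0.0768% in the 5′ UTR. Capitals mark the unpaired C and the loop, and each sequence is given 5′ to 3′ on the strand of its gene.
TFRC stem-loop 1 (chr3:196050979-196051007, minus strand): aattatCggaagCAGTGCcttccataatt
TFRC stem-loop 2 (chr3:196050575-196050603, minus strand): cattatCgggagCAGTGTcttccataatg
TFRC stem-loop 3 (chr3:196050510-196050538, minus strand): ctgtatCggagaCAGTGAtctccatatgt
TFRC stem-loop 4 (chr3:196050463-196050491, minus strand): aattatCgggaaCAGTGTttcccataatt
FTH1 stem-loop (chr11:61967574-61967602, minus strand): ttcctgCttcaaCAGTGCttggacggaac
FTL stem-loop (chr19:48965335-48965363, plus strand): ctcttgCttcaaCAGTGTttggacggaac
SLC40A1 stem-loop (chr2:189580661-189580689, minus strand): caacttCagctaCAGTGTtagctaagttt
No match was found in the transcripts searched for STEAP3, SLC11A2, NCOA4, ACO1, IREB2 and HMOX1, which says only that these letters are not there. The search can miss elements. Among other genes listed as carrying one, it found 1 in ALAS2 but none in EPAS1, CDC42BPA, CDC14A and PFN2. The set shown may thus be incomplete.

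The values are TPM, a transcript abundance scaled by the authors for gene length and library total. TPM keeps no read depth, so no counting error can be given for a value, and between 23152 and 25043 genes per library were above 0. Groups were compared on log2(TPM + 1) with limma over the 14286 genes that averaged 1 TPM or more, with Benjamini-Hochberg adjustment; on this scale the change of low genes is understated. BCAT1 itself, as a check of the labels, had a log2 fold change of -2.12 (adjusted p = 0.000272 from limma), and its siBCAT1 libraries (at most 8.78 TPM) all lay under its siNC libraries (at least 29.8 TPM). Of all genes tested, 27.1% passed an adjusted p of 0.05, 16.7% higher and 10.4% lower in siBCAT1 cells, and the median log2 fold change was 0.04. Of 8 markers of lung adenocarcinoma epithelium, 5 reached a mean of 1 TPM (4 keratins, and EPCAM at only 1.27 TPM in siNC), whereas the lineage markers NKX2-1, NAPSA and SFTPB stayed at or below 0.33 TPM in every library. The summed level of these 8 was 2517 to 2935 TPM in siNC and 1643 to 1935 TPM in siBCAT1 libraries, a shift whose part in the results below was not tested. That sum was nearly all keratins. EPCAM went the other way, from 0.91 to 1.55 TPM in siNC to 1.96 to 2.61 TPM in siBCAT1 libraries (adjusted p = 0.0732 from limma). Markers of red cell precursors, which carry much of the body's heme, summed to 0.16 to 0.32 TPM in siNC and 0.02 to 0.06 TPM in siBCAT1 libraries, with HBA1 and HBA2 listed at 0 in all. Markers of macrophages summed to 3.43 to 3.55 TPM and 1.77 to 3.40 TPM, with PTPRC at 0 in 5 of the 6 libraries (0.33 TPM in siBCAT1 replicate 2). Of the fibroblast and endothelial markers, summing to 249 to 268 TPM in siNC and 189 to 243 TPM in siBCAT1 libraries, COL1A2 made up most, and DCN was at 0 throughout.

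In siNC cells the ferritins were by far the most abundant members. FTL averaged 4030.0 TPM and FTH1 2406 TPM, ranks 26 and 64 among all genes, followed by TFRC at 94.4, NCOA4 at 46.2, HMOX1 at 42.2, STEAP3 at 28.7, ACO1 at 26.0, SLC11A2 at 21.1, IREB2 at 15.4 and SLC40A1 at 0.117 TPM. Only NCOA4 and HMOX1 overlapped as neighbours in this order. In siBCAT1 cells HMOX1 (56.3 TPM) stood above NCOA4 (41.1 TPM) without overlap, and STEAP3 (16.4 TPM) dropped to the range of SLC11A2 (17.2 TPM), where the libraries overlapped. These orders rest on the gene length in the table, which equals an annotated transcript for 4 of the 10 members: for ACO1 it was 3601 bases, while the longest annotated transcript has 7466.

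**Figure D1:**
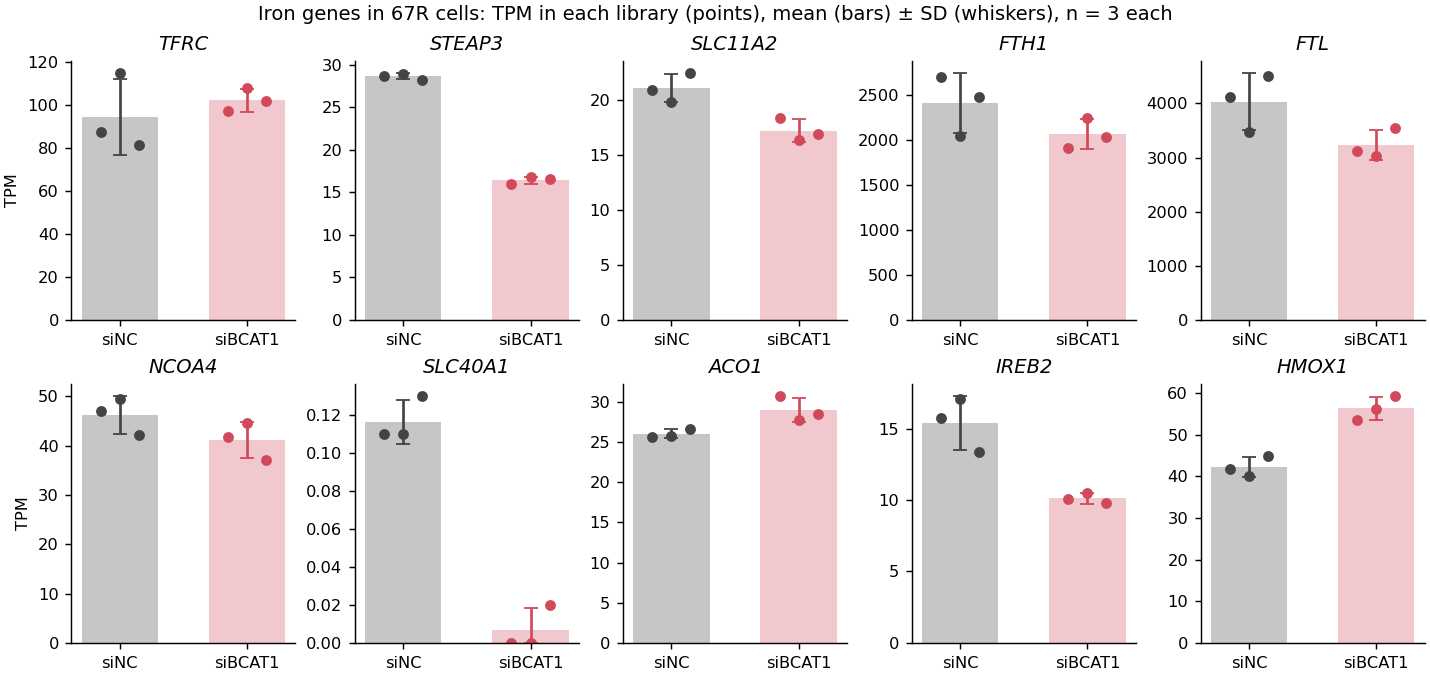
TPM (vertical axes, each from 0) of the 10 genes in siNC and siBCAT1 cells; points are libraries, in the order of replicates 1 to 3, bars are means and whiskers SD (n = 3). STEAP3, IREB2, SLC11A2 and SLC40A1 were lower, and HMOX1 and ACO1 higher, in all siBCAT1 libraries without overlap with siNC, whereas TFRC, FTH1, FTL and NCOA4 overlapped. SLC40A1 was at most at 0.13 TPM, too low to be tested. Of all tested genes, 44.1% had groups that did not overlap.

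Of the 9 members that could be tested, STEAP3 and IREB2 fell and HMOX1 rose after BCAT1 knockdown. That is 3 of 9, or 33.3%, beside 27.1% of all genes, a share near that background. Their median log2 fold change was -0.22, with 6 below and 3 above 0. The groups did not overlap for 5 of the 9, beside 44.1% of all genes: 2 were higher (26.1% of all genes) and 3 lower (18% of all genes). In bulk RNA, fewer cells with a transcript and less of it per cell cannot be told apart.

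**Figure D2:**
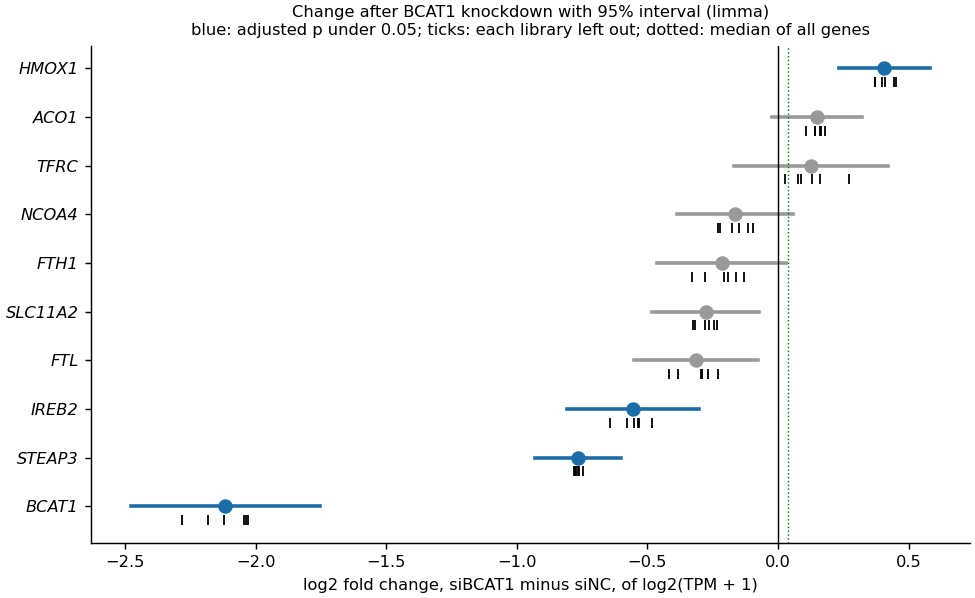
Log2 fold change of the 9 tested iron genes and of BCAT1 (points; horizontal axis, siBCAT1 minus siNC on log2(TPM + 1)) with 95% intervals from limma; blue marks an adjusted p under 0.05, ticks the value with each library left out, and the dotted line the median of all genes. HMOX1 lies to the right and IREB2 and STEAP3 to the left as the called members; the intervals of SLC11A2 and FTL also lie clear of 0, and the ticks of TFRC and FTH1 spread widest for their size.

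STEAP3, the metalloreductase that reduces transferrin iron in the endosome, changed most. It was at 28.75, 28.95 and 28.28 TPM in siNC, against 16.0, 16.8 and 16.5 TPM in siBCAT1 replicates 1, 2 and 3. The libraries of each group were nearly level, and the groups were far apart. The mean of 28.7 ± 0.344 TPM fell by 42.7% to 16.4 ± 0.422 TPM (SD, n = 3 libraries per group). On the log2 scale this was -0.77 (SE 0.07, adjusted p = 0.000592 from limma). The size of this change exceeded that of 90.7% of tested genes. The gene lies on chromosome 2 from 119223831 to 119265652, and the antisense gene STEAP3-AS1 overlaps it. That partner was at 0.26 to 0.45 TPM in siNC and 0.02 to 0.11 TPM in siBCAT1 libraries, and reads of the pair can be told apart only if strand was used in counting, which is not given in the sources used here.

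TFRC, the transferrin receptor, did not pass the test. It was at 87.3, 114.6 and 81.4 TPM in siNC, against 97.2, 107.6 and 101.5 TPM in siBCAT1 replicates 1, 2 and 3. The highest value of all came from siNC replicate 2, and the other siNC libraries lay under all siBCAT1 libraries. The log2 fold change was 0.13 (95% interval -0.17 to 0.42, adjusted p = 0.494 from limma), an interval that holds both a rise and a fall. Without siNC replicate 2 it was 0.27, with an adjusted p of 0.0336 from limma, and under median-ratio scaling and quantile normalization it was 0.075 and 0.046. With any other library left out, the adjusted p was 0.489 to 0.892 from limma.

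SLC11A2 encodes DMT1, the transporter that moves ferrous iron out of the endosome. Its values were 21.0, 19.9 and 22.5 TPM in siNC and 18.4, 16.4 and 16.9 TPM in siBCAT1 replicates 1, 2 and 3. Every siBCAT1 library lay under every siNC library, and the adjusted p of 0.0517 (limma) stood just past the threshold. The log2 fold change was -0.28 (SE 0.09), and SLC11A2 passed with the replicate number as a block (adjusted p = 0.0454 from limma) and under both other scalings of the libraries (0.0303 and 0.0312 from limma). It did not pass under 9 of 13 alternatives. Among these were no filter (adjusted p = 0.0890 from limma), no trend (0.0615) and each library left out (0.0519 to 0.152).

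FTH1 and FTL encode the heavy and light chains of ferritin, the iron store; the heavy chain oxidises iron. FTH1 was at 2699, 2047 and 2471 TPM in siNC, against 1909, 2242 and 2035 TPM in siBCAT1 replicates 1, 2 and 3. FTL was at 4121, 3466 and 4503 TPM in siNC, against 3128, 3025 and 3540 TPM in siBCAT1 replicates 1, 2 and 3. For both chains siNC replicate 2 was the lowest control library and reached into the range of siBCAT1.

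Neither chain passed the test. The log2 fold change was -0.22 for FTH1 (95% interval -0.46 to 0.03, adjusted p = 0.171 from limma) and -0.31 for FTL (95% interval -0.55 to -0.08, adjusted p = 0.0567 from limma). Without siNC replicate 2 they were -0.33 and -0.42, with adjusted p of 0.0223 and 0.0102 from limma, and FTL also passed with the replicate number as a block (adjusted p = 0.0103 from limma). Under quantile normalization they were smaller, at -0.14 for FTH1 and -0.20 for FTL (adjusted p = 0.376 and 0.242 from limma), and the adjusted p of FTL was 0.194 with no filter and 0.120 without the trend. With a library other than siNC replicate 2 left out, the adjusted p from limma was 0.144 to 0.412 for FTH1 and 0.0540 to 0.158 for FTL. Both genes have many processed pseudogenes, with which reads may be shared. The 25 FTH1 pseudogenes in the table summed to 1.63 to 4.09 TPM, at most 0.165% of FTH1, and the 16 FTL pseudogenes to at most 0.89 TPM. FTH1P2 was the highest FTH1 pseudogene (at most 1.65 TPM) and FTLP12 the highest FTL pseudogene (at most 0.48 TPM).

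NCOA4, the receptor that brings ferritin to the lysosome for breakdown, was at 47.0, 49.5 and 42.1 TPM in siNC, against 41.8, 44.5 and 37.1 TPM in siBCAT1 replicates 1, 2 and 3. The groups overlapped, and the log2 fold change of -0.16 had a 95% interval of -0.39 to 0.06 (adjusted p = 0.245 from limma).

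SLC40A1 encodes ferroportin, the known exporter of iron. It was at 0.11, 0.11 and 0.13 TPM in siNC, was listed at 0 in siBCAT1 replicates 1 and 2 and was at 0.02 TPM in replicate 3. All libraries were far under the mean of 1 TPM needed for the test, and no fold change is given. When genes with any value above 0 were tested, its adjusted p was 0.0377 from limma, over 31860 genes, on values that a few reads can set.

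ACO1 and IREB2 encode IRP1, which is a cytosolic aconitase while it holds an iron-sulfur cluster, and IRP2, which is degraded when iron is plentiful. IREB2 fell, and ACO1 did not pass the test. IREB2 was at 15.8, 17.0 and 13.4 TPM in siNC, against 10.1, 10.5 and 9.78 TPM in siBCAT1 replicates 1, 2 and 3. No siBCAT1 library reached the lowest siNC library, and the mean fell by 34.2%, from 15.4 ± 1.86 to 10.1 ± 0.368 TPM (SD, n = 3 each; log2 fold change -0.55, SE 0.11, adjusted p = 0.00988 from limma).

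ACO1 was at 25.6, 25.7 and 26.6 TPM in siNC, against 30.7, 27.7 and 28.5 TPM in siBCAT1 replicates 1, 2 and 3. All siBCAT1 libraries were above the siNC libraries, yet the difference of 0.15 on the log2 scale did not pass the test (95% interval -0.02 to 0.32, adjusted p = 0.173 from limma; 0.076 under quantile normalization). The 3′ UTR of IREB2 (3313 bases) holds the word AGACAAT, the seed site of siBCAT1-1, 1 of 2 siRNAs against BCAT1 that the study describes. Of 608 3′ UTRs within 10% of this length, 17.9% hold that word. The word TTGAGCA, the seed site of siBCAT1-2, is in the 3′ UTR of SLC11A2 and of NCOA4, and in 11.4% of the 3′ UTRs of all 11558 tested genes searched. No other member has either word in its 3′ UTR. Which of the siRNAs these libraries received is not stated in the labels, which give only the name siBCAT1. The methods list siBCAT1 as another name of siBCAT1-2, whose word is not in the 3′ UTR of IREB2. The part of these words in the changes was not tested.

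Ratios of genes within a library do not depend on how libraries were scaled. IREB2 to ACO1 was 0.614, 0.663 and 0.502 in siNC and 0.328, 0.379 and 0.343 in siBCAT1 replicates 1, 2 and 3. The groups did not overlap, and the ratio changed by -0.75 on the log2 scale (two-sided exact permutation p = 0.1, the smallest that 3 against 3 libraries can give). TFRC to FTH1, the receptor against the store, was 0.0323, 0.0560 and 0.0329 in siNC and 0.0509, 0.0480 and 0.0499 in siBCAT1 replicates 1, 2 and 3. The element of FTH1 acts on translation, so this RNA ratio does not measure the action of the iron regulatory proteins.

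This ratio was even among siBCAT1 libraries, and siNC replicate 2 stood above them while the other controls stood below. Its log2 difference was 0.34 with all libraries (exact permutation p = 0.4) and 0.60 without siNC replicate 2. That library was also nearer to the siBCAT1 libraries across all tested genes than the other siNC libraries were. Its Pearson correlations with the siBCAT1 libraries, across genes, were 0.953 to 0.958, against 0.943 to 0.948 for the other siNC libraries. It was still nearer to its own group, at 0.966 and 0.964 with siNC replicates 1 and 3, which had 0.964 with each other. The ratios of FTH1 to FTL (log2 difference 0.10, exact permutation p = 0.6) and of NCOA4 to FTH1 (0.05, exact permutation p = 0.8) overlapped between groups, and the sign of each turned when 1 library was left out.

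**Figure D3:**
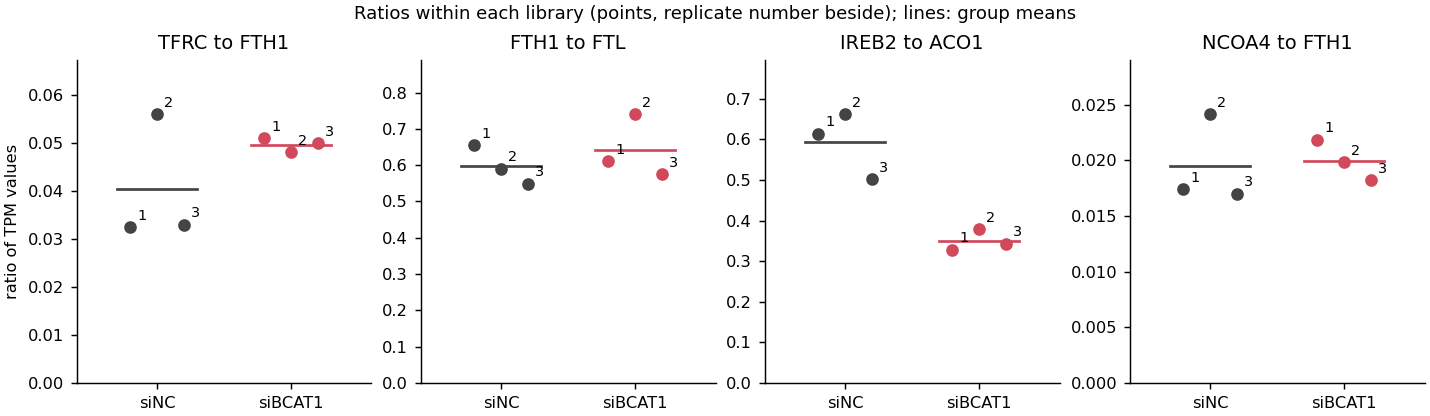
Ratios of TPM values (vertical axes, from 0) within each library for 4 pairs of iron genes; points carry the replicate number and lines are group means. IREB2 to ACO1 separates the groups, while in TFRC to FTH1 siNC replicate 2, at 0.0560, lies above all siBCAT1 libraries.

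HMOX1, the inducible heme oxygenase that opens the heme ring and frees its iron, was the 1 member that rose. It was at 41.6, 40.1 and 45.0 TPM in siNC, against 53.6, 56.2 and 59.1 TPM in siBCAT1 replicates 1, 2 and 3. Every siBCAT1 library was above every siNC library. The mean of 42.2 ± 2.49 TPM rose by 33.4% to 56.3 ± 2.78 TPM (SD, n = 3 libraries per group), which was 0.41 on the log2 scale (SE 0.07, adjusted p = 0.00753 from limma). HMOX1 lies on chromosome 22 from 35380361 to 35394214, where no other annotated gene overlaps it.

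Transcription of HMOX1 is repressed by BACH1, which heme binds and inactivates, and is driven by NRF2. BACH1 went from 8.88 ± 0.941 to 4.66 ± 0.468 TPM (SD, n = 3 each), without overlap, and fell by 0.80 on the log2 scale (adjusted p = 0.00399 from limma). NFE2L2, which encodes NRF2, also fell, from 63.2 ± 5.66 to 47.3 ± 4.67 TPM (SD, n = 3 each; log2 fold change -0.41, adjusted p = 0.0220 from limma), without overlap. The transcripts of the repressor and of the driver of HMOX1 were thus both lower in siBCAT1 cells. Their proteins were not measured, and a link between these RNA changes and that of HMOX1 was not tested. Of 11 tested genes among BACH1, NRF2, their partners and shared targets, 2 rose and 4 fell (54.5% called, beside 27.1% of all genes). ME1, which makes NADPH, rose from 10.2 ± 1.01 to 17.9 ± 0.503 TPM (SD, n = 3 each; log2 fold change 0.77, adjusted p = 0.00188 from limma). GCLM, the modifier subunit of the first enzyme of glutathione synthesis, rose from 5.53 ± 0.976 to 9.35 ± 0.805 TPM (SD, n = 3 each; log2 fold change 0.67, adjusted p = 0.0117 from limma). The targets that fell were TXNRD1, the cytosolic thioredoxin reductase (-0.63 on the log2 scale, adjusted p = 0.00521 from limma), and OSGIN1 (-0.37, adjusted p = 0.0356 from limma). NFE2L2, TXNRD1 and OSGIN1 were named after their values were seen. The list thus moved in both directions, with a median of -0.03, and the count that fell was 2 with no filter, without siNC replicate 1 or without siBCAT1 replicate 2.

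Other genes of iron handling were taken from lists drawn up by function, 81 of whose 95 genes could be tested. Of these, 17 rose and 14 fell (38.3% called, beside 27.1% of all genes). The list medians lay between -0.27 and 0.13. Among 6 tested genes of iron storage, chaperones and sensing, 3 rose and none fell (50% called, beside 27.1% of all genes called and 16.7% higher); the count that rose was 2 under 8 of 13 alternatives, those under which CUL1 lost its call. FBXL5, the iron-binding receptor of the ubiquitin ligase that degrades IRP2, was at 42.5, 41.1 and 42.1 TPM in siNC and 57.4, 58.8 and 58.8 TPM in siBCAT1 replicates 1, 2 and 3 (log2 fold change 0.47, adjusted p = 0.00193 from limma). Its libraries were close within groups. It rose where IREB2, which encodes its substrate, fell. The ligase acts on IRP2 protein, which was not measured, and a link between these RNA changes was not tested.

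PCBP2, an RNA-binding protein that also delivers iron, rose from 317 ± 9.42 to 376 ± 5.97 TPM (SD, n = 3 each; log2 fold change 0.24, adjusted p = 0.00809 from limma). CUL1, the scaffold of the same ligase, rose by 0.36 (adjusted p = 0.0244 from limma), a call lost without a filter on low values, under each scaling and with each library left out but siNC replicate 2.

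Among 11 tested genes of other iron import and mitochondrial iron transport, 1 rose and 2 fell (27.3% called, beside 27.1% of all genes). STEAP1, a relative of STEAP3 in the same family, went the other way than STEAP3, from 8.11 ± 0.240 to 13.7 ± 0.936 TPM (SD, n = 3 each; log2 fold change 0.68, adjusted p = 0.00239 from limma). SNX3, which sorts the transferrin receptor back to the cell surface, fell from 151 ± 6.92 to 111 ± 4.47 TPM (SD, n = 3 each; log2 fold change -0.44, adjusted p = 0.00253 from limma). MCOLN1, a channel that releases iron from late endosomes and lysosomes, fell by 0.39 (adjusted p = 0.0210 from limma). That call was lost without a filter on low values (0.0505), without siNC replicate 3 (0.0658) or without siBCAT1 replicate 1 (0.0530). Under each of these settings the count that fell in this list was 1. Of the genes of export and systemic control, 2 were tested and 1 fell (50% called, beside 27.1% of all genes called and 10.4% lower). It was FURIN, a protease that cuts the hepcidin precursor among others, which fell by 0.30 (adjusted p = 0.0124 from limma).

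Heme synthesis moved in both directions. Of 11 tested genes, 2 rose and 3 fell (45.5% called, beside 27.1% of all genes). All 11 had groups that did not overlap, beside 44.1% of all genes. PPOX, the enzyme before the last step, was at 17.6, 16.0 and 15.4 TPM in siNC and 32.8, 28.6 and 28.9 TPM in siBCAT1 replicates 1, 2 and 3 (log2 fold change 0.84, adjusted p = 0.00110 from limma). ALAD, the second enzyme, was at 22.1, 20.8 and 19.9 TPM in siNC and 13.5, 14.7 and 12.3 TPM in siBCAT1 replicates 1, 2 and 3 (log2 fold change -0.60, adjusted p = 0.00432 from limma). The count that rose was 1 without siNC replicate 1 or siNC replicate 3 and 4 with the replicate block. The count that fell was 1 without the trend and without siNC replicate 1, siBCAT1 replicate 1 or siBCAT1 replicate 2.

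In heme transport and breakdown, 3 of 10 tested genes fell and none rose (30.0% called, beside 27.1% of all genes called and 10.4% lower). FLVCR2, a heme and choline transporter, was at 5.09, 3.80 and 4.18 TPM in siNC and 1.68, 1.61 and 1.19 TPM in siBCAT1 replicates 1, 2 and 3 (log2 fold change -1.10, adjusted p = 0.00391 from limma). LRP1, the receptor that takes up heme bound to hemopexin, fell from 15.6 ± 2.33 to 8.06 ± 0.647 TPM (SD, n = 3 each; log2 fold change -0.86, adjusted p = 0.00352 from limma). PGRMC1, a heme-binding membrane protein, fell from 116 ± 3.48 to 82.9 ± 1.35 TPM (SD, n = 3 each; log2 fold change -0.48, adjusted p = 0.00126 from limma).

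Iron-sulfur cluster assembly, the other large use of iron, had 8 of 25 tested genes higher and 1 lower, with a median of 0.08. That is 36.0% called, beside 27.1% of all genes called, 16.7% higher and 10.4% lower. ISCA1, a late assembly factor, rose from 25.3 ± 2.39 to 46.6 ± 5.22 TPM (SD, n = 3 each; log2 fold change 0.85, adjusted p = 0.00190 from limma). NFS1, the cysteine desulfurase that supplies the sulfur, rose by 0.45 (adjusted p = 0.0175 from limma), and its partner LYRM4 fell by 0.68 (adjusted p = 0.00666 from limma). NFS1 lost its call without siNC replicate 1 (0.0601), siBCAT1 replicate 1 (0.0566) or siBCAT1 replicate 2 (0.0619). The count that rose was 5 under each other scaling, and it was 3 without siNC replicate 1, 5 without siNC replicate 3 and 4, 4 and 5 without siBCAT1 replicates 1, 2 and 3. The count that fell was 3 under quantile normalization and 2 without siNC replicate 2.

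**Figure D4:**
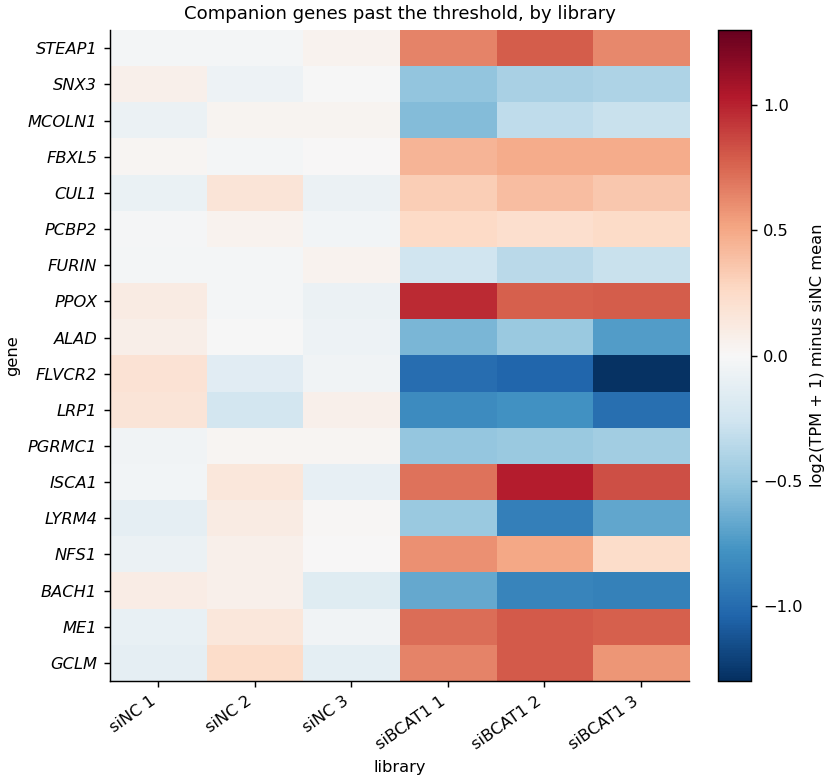
Heat map of log2(TPM + 1) minus the siNC mean (color) for the named genes of the iron and heme lists (rows) in the 6 libraries (columns). All siBCAT1 libraries lie on the same side of 0 for each gene, with PPOX and ISCA1 the reddest rows and FLVCR2, LRP1 and BACH1 the bluest.

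The genes most like a member across libraries were ranked by Pearson's r of log2(TPM + 1) over the 6 libraries among 8131 genes averaging 10 TPM or more. With so few libraries, which also share the group difference, many genes come close to 1, and r is given as a description only. HMOX1 was most like DNAJA4 (0.995), CDR2L (0.994) and KIAA1143 (0.993), and 863 genes had an r above 0.9. TFRC was most like SFMBT1 (0.987), UQCRQ (0.987) and TUBB6 (0.981), with 110 genes above 0.9. FTH1 was most like OSBPL3 (0.976), PHAX (0.972) and NBEAL2 (0.970), with 58 genes above 0.9.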

How the data were processed

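RNA-seq data from 6 libraries of 67R cells were used, 3 siNC and 3 siBCAT1, with groups and replicate numbers taken from the sample titles. The authors prepared stranded mRNA libraries, and per the labels fastp, HISAT2, StringTie and GRCh38 were used. The authors deposited TPM values with 2 decimals for each gene in each library, beside the gene's length; the unit was read from the values, which sum to 992512 to 995593 per library. At most 1.42% of tested genes had equal values in a pair.

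The scale was log2(TPM + 1). Tests used limma 3.58.1 (R 4.3.3; eBayes with trend, two-sided) on genes averaging 1 TPM or more, and p-values were adjusted over all 14286 genes at a threshold of 0.05. Within-library ratios were compared by exact permutation. The script was tested on simulated data first. Transcripts and coordinates came from GENCODE 29. Python 3.11.15, pandas 2.3.3, numpy 2.4.6 and matplotlib 3.10.9 were used for sequences and figures.

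The members, the lists and the tests were chosen with earlier results of these data known. Named were BCAT1, the members, up to 3 called genes per list with the largest absolute log2 fold change, the highest ferritin pseudogenes and the 3 genes most like TFRC, FTH1 and HMOX1; cell type markers, STEAP3-AS1 and genes sharing a role in the text complete the names. Some genes that the rule names are not reported here. The alternatives were other filters (none, or 5 TPM on average), the replicate block, 0.1 as pseudocount, median-ratio scaling, quantile normalization, eBayes without trend and each library left out.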

Additional observations from a re-analysis of the deposited data

How the results depend on the processing

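The directions of BCAT1 and of the 9 tested members held under all 13 alternatives, and BCAT1, STEAP3, IREB2 and HMOX1 kept their calls in each. Members that had missed the threshold passed it as follows. SLC11A2 did so at -0.28 with a mean of at least 5 TPM and with the replicate block, at -0.33 under median-ratio scaling and at -0.31 under quantile normalization. FTL did so at -0.31 with the 5 TPM filter, with 0.1 as pseudocount and with the replicate block. Other settings made changes smaller: quantile normalization gave 0.046 for TFRC, 0.076 for ACO1, -0.14 for FTH1 and -0.20 for FTL, and median-ratio scaling gave 0.075 for TFRC, while NCOA4 was larger under quantile normalization (-0.25). None of these passed. Among the fits with a library left out, TFRC (0.27), FTH1 (-0.33) and FTL (-0.42) passed only without siNC replicate 2. The count of members that fell was thus 4, not 2, with a mean of at least 5 TPM, with the replicate block and without siNC replicate 2, where the count that rose was 2, not 1.

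With each library left out, log2 fold changes ranged from -2.28 to -2.03 for BCAT1, -0.78 to -0.75 for STEAP3, -0.65 to -0.48 for IREB2, 0.37 to 0.45 for HMOX1, 0.028 to 0.27 for TFRC, -0.32 to -0.23 for SLC11A2, -0.33 to -0.13 for FTH1, -0.42 to -0.23 for FTL, -0.23 to -0.09 for NCOA4 and 0.11 to 0.18 for ACO1. The counts of members lay between 2 and 4 (lower) and 1 and 2 (higher). The FTH1 to FTL ratio turned to -0.010 without siBCAT1 replicate 2 (leaving out each library, -0.010 to 0.17), and NCOA4 to FTH1 (-0.042 to 0.21) turned to -0.025, -0.042 and -0.019 without siNC replicate 1, siNC replicate 3 and siBCAT1 replicate 1. The causes were not tested.

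Over all genes, 2382 were higher and 1483 lower (61.6% of calls higher), 1607 and 960 without a filter, and 51.7% of calls were higher under median-ratio scaling. Without siNC replicate 1 the counts were 1634 and 859. Same-numbered libraries deviated together only weakly (correlations of 0.084, 0.102 and 0.124), although each correlated best with its own number. They are taken to share only a number, and the block raised the counts to 2773 and 1795. TPM keeps no depth, which limits what can be said of SLC40A1.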
